A study of Mus musculus with 18 samples.

Results

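Bone marrow-derived macrophages (BMDMs) of the C57BL/6 (B6) mouse were compared after 2 stimuli, apoptotic cells (AC) and the oligonucleotide CpG, in the 3 AC treated and the 3 CpG treated B6 samples, 6 of the 18 samples of the study. The question the comparison addresses is which genes macrophages express differently when they take up dead cells and when they meet a ligand of Toll-like receptors. All genes were compared, in both directions, and none was chosen for the comparison by its values. The rules by which genes are named in the text are given with the processing. The other 12 samples were untreated (control) B6 BMDMs and BMDMs of the C57BL/6.NOD-*Aec1Aec2* strain (SjSS), either untreated or given one of the same stimuli, 3 of each, and are used only where they show how the B6 comparison stands beside them.

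All groups were grown alike: marrow of femurs and tibias of mice aged 7 to 12 weeks was cultured with M-CSF from L929 cell supernatant, and supernatant was also present during treatment. ACs were thymocytes killed with dexamethasone, a synthetic glucocorticoid, given at 5 per BMDM for 2 h and then washed off, and by the labels 3 h more passed before RNA was taken (the study's methods give a longer time). CpG was given at 1 µM for 6 h. For all cells together, a figure legend of the study gives a wash after the stimulus and 3 h more before RNA was taken. Its methods describe the wash as removing apoptotic cells, so it stays unclear whether CpG cultures were kept on in the same way. AC and CpG samples thus differ in the stimulus and in its timing, and these cannot be told apart here. The study counts 3 mice per strain. Its text does not say whether samples with the same number share a mouse, so p values measure the spread between these samples, which may be partly technical, nor does it name the strain of the thymocytes in this experiment. RNA was from whole cultures, in which fewer cells of a type and less RNA per cell cannot be told apart.

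An apoptotic cell is recognized by the phosphatidylserine on its surface, is engulfed by way of receptors such as MERTK and AXL, and delivers its membranes, cholesterol, proteins and nucleic acids to the lysosome, a process called efferocytosis. Cholesterol from engulfed cells can be converted to oxysterols, which are ligands of the nuclear receptors LXRα and LXRβ, inducers of cholesterol efflux genes, while a high sterol content keeps SREBP2, the activator of cholesterol synthesis genes, inactive. CpG DNA binds TLR9 in endosomes and signals through MYD88 to NF-κB, MAP kinases and interferon regulatory factors, which turn on cytokine, chemokine and interferon genes.

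The AC and CpG libraries held 39856501 to 52464294 estimated counts on genes, within the range of all 18 (30688288 to 57139640), and 15789 of 20615 genes passed the filter on low counts and were tested. Levels are given in CPM, a gene's counts set against its library's total after TMM scaling, and fold changes as log2 of AC over CpG, so that a negative value means a higher level with CpG. Genes whose p in the quasi-likelihood test of edgeR was under 0.05 after Benjamini-Hochberg adjustment over all tested genes, and whose log2 fold change exceeded 1.3 either way, were called. All adjusted p values below come from that fit, with the standard error (SE) beside them. The markers of macrophages *Adgre1* (F4/80) and *Csf1r* were at 2089 to 2140 and 1718 to 1767 CPM with AC and at 4102 to 4638 and 2296 to 2479 CPM with CpG, so that both groups had a high level of each. CpG sample 1 differed more from the other CpG samples (chi-square per degree of freedom over genes of 30.6 and 26.4) than these from each other (11.8) or AC samples among themselves (9.06 to 13.9). Values without it are given, in part in the last section, where they change a call stated for a named gene.

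The direct comparison called 1123 genes (7.11% of those tested), 575 higher with AC (3.64%) and 548 higher with CpG (3.47%). The median log2 fold change was 1.73 over the genes higher with AC and -1.89 over those higher with CpG, against 0.03 over all tested genes. Of the genes past a log2 fold change of 4, 34 were higher with CpG and 20 higher with AC. The 3 samples of one group lay entirely above the 3 of the other for 559 of the 575 and 534 of the 548 genes, against 54.4% of all tested genes. Genes coding for proteins were 86.3% of those higher with AC and 78.8% of those higher with CpG, against 82.2% of all tested.

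**Figure D1:**
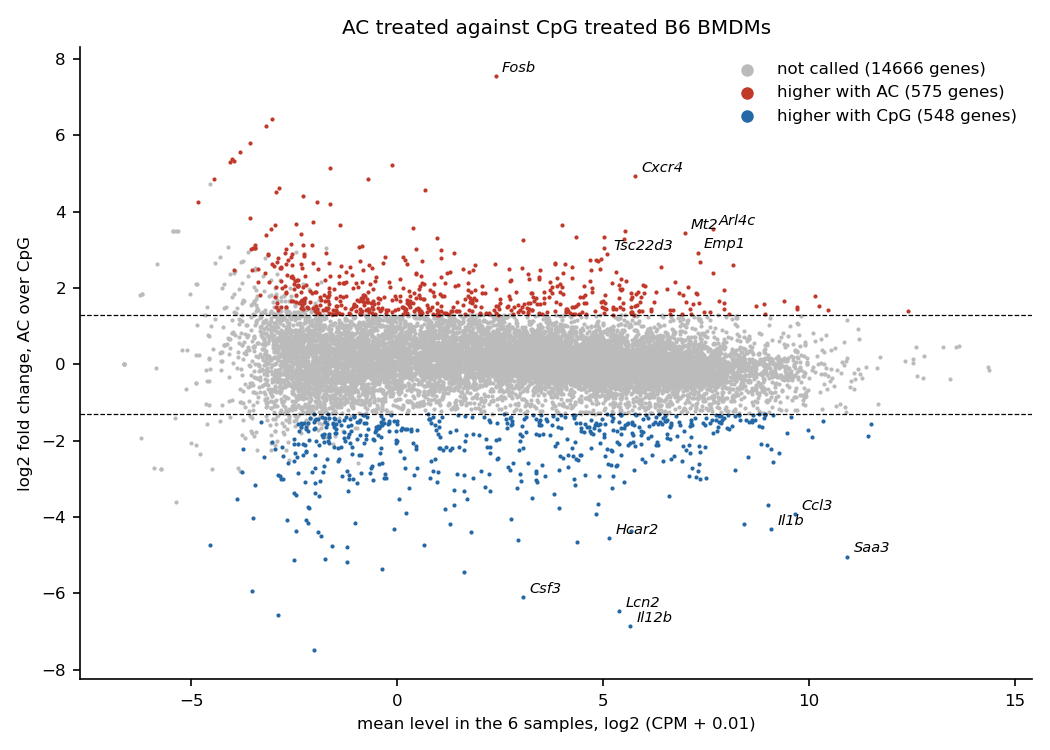
Log2 fold change of AC over CpG in B6 BMDMs (vertical axis) against the mean level over the 6 samples as log2 (CPM + 0.01) (horizontal axis) for the 15789 tested genes; dashed lines mark a log2 fold change of 1.3 either way. The 575 genes higher with AC are red and the 548 higher with CpG blue, with *Fosb* at 7.56 and *Il12b* at -6.85 among those labelled.

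Where the untreated cells stood differed between the directions. For 332 of the 548 genes higher with CpG (60.6%) the mean of the B6 control samples lay below both stimuli, and for 20 (3.65%) above both. For the 575 genes higher with AC it lay below both for 18 (3.13%), between them for 262 (45.6%) and above both for 295 (51.3%). Over all tested genes the shares were 35.4% below, 26.3% between and 38.3% above. Most genes higher with AC thus had their lowest mean with CpG, and most genes higher with CpG had their lowest mean in the untreated cells. Each stimulus was also tested against the same 3 control samples: AC changed 705 genes (4.47% of those tested) and CpG 2011 (12.7%). Single AC and CpG samples were on average 103.5 apart (Euclidean distance in log2 CPM over all tested genes, 94.3 to 112.4 over the 9 pairs), between 87.1 for AC and control and 131 for CpG and control samples, with 55.4 within the AC and 67.4 within the CpG group.

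The genes of 20 lists are given by count and median beside those of all tested genes. Of all tested genes 3.64% were called higher with AC and 3.47% higher with CpG. The lists were drawn up by known function, but with earlier results of these data known. Their counts and medians are therefore descriptions and no test. A list with 1 call among about 20 to 30 members is close to that background. Sterol synthesis and uptake genes had the lowest median (-1.63 over 21 tested), followed by inflammatory cytokines (-1.54 over 20), and growth and repair factors had the highest (1.02 over 15), followed by genes induced by glucocorticoids (0.74 over 16).

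**Figure D2:**
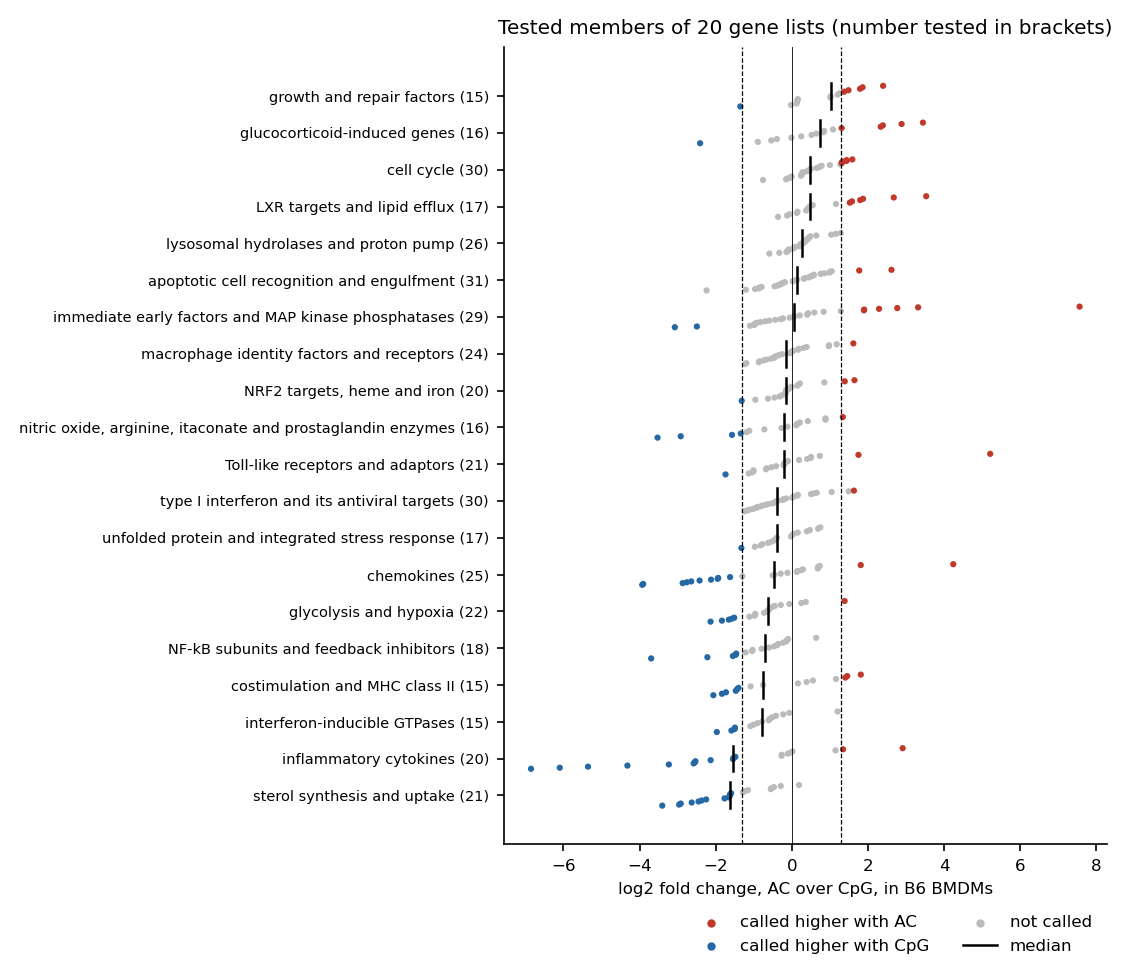
Log2 fold change of AC over CpG in B6 BMDMs (horizontal axis) for each tested member of 20 gene lists (rows, ordered by their median; number tested in brackets), with called genes in red and blue, genes not called in grey, black bars for medians and dashed lines at 1.3 either way. Sterol synthesis genes and inflammatory cytokines lie mostly to the left, growth and repair factors and glucocorticoid-induced genes mostly to the right.

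Inflammatory cytokines held several of the largest fold changes towards CpG. Of 20 tested members 12 were higher with CpG and 2 with AC, and against control 9 were called higher with AC and 13 with CpG. *Il12b* (chromosome 11, 44400063 to 44414034, mm10), which codes for the p40 subunit shared by IL-12 and IL-23, had the largest fold change towards CpG among genes with a mean of at least 5 CPM in the CpG group. It was at 98.9, 102 and 97.9 CPM in the CpG samples and at 0.457, 0.965 and 1.18 CPM in the AC samples, with 0.0178 to 0.0626 CPM in control BMDMs. The AC samples stood above every control sample and far below CpG, with a log2 fold change of -6.85 (SE 0.20, adjusted p = 3.17e-14). *Il12a*, for the p35 subunit of IL-12, had 200 counts over the CpG group and 5 over the AC group (-5.35, SE 0.55, adjusted p = 4.75e-07). It is 1 of the 9 called higher with AC than in control. That call was lost with thinned libraries (adjusted p = 0.187) and without AC sample 1 (0.0710) or AC sample 2 (0.0701). *Csf3*, the growth factor of neutrophils G-CSF, was at 20.6, 16.1 and 12.2 CPM with CpG and at 0.298, 0.227 and 0.178 CPM with AC, and had 0 counts in the control samples (-6.10, SE 0.30, adjusted p = 3.40e-10).

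The early cytokines of the response were raised by both stimuli to unequal levels. *Il1b* was at 39.99, 60.5 and 54 CPM with AC and at 1263, 1035 and 785 CPM with CpG, from 4.29 to 7.14 CPM in control BMDMs. *Tnf* was at 144, 179 and 167 CPM with AC and at 1051, 944 and 872 CPM with CpG, from 45.5 to 46.5 CPM. *Il6* was at 3.71, 6.36 and 5.75 CPM with AC and at 26.5, 20.6 and 22.2 CPM with CpG, from 0.0626 to 0.176 CPM. In each of the 3 genes no AC sample reached a CpG sample, and no control sample reached an AC sample. Between AC and CpG *Il1b* differed by a log2 fold change of -4.32 (SE 0.20, adjusted p = 4.88e-12), *Tnf* by -2.55 (SE 0.14, adjusted p = 2.87e-11) and *Il6* by -2.13 (SE 0.19, adjusted p = 3.20e-08). Against control the log2 fold changes of AC were 3.29, 1.83 and 5.58, and those of CpG 7.61, 4.38 and 7.71, all 6 called. *Il1a* followed the same order (AC over CpG -2.53).

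*Il10*, which restrains macrophage activation, was also higher with CpG, at 73.6, 66.7 and 60.6 CPM against 6.73, 7.61 and 7.06 CPM with AC and 1.75 to 2.56 CPM in control (-3.23, SE 0.15, adjusted p = 6.60e-12). The subunits of IL-27, *Il27* (-2.58) and *Ebi3* (-1.55), were called higher with CpG, as were *Il18* (-1.53) and *Tnfsf9* (-1.48), the ligand of 4-1BB. The opposite direction held for *Lif*, a cytokine of the IL-6 family, at 4.85, 4.84 and 4.06 CPM with AC and 0.726, 0.24 and 0.804 CPM with CpG (2.91, SE 0.36, adjusted p = 1.93e-06), and for *Csf1*, the gene of M-CSF (1.35). With CpG *Lif* was called lower than in control BMDMs (1.25 to 2.5 CPM), and *Csf1* was at 12.5 to 21.2 CPM with CpG and 22.1 to 47.6 CPM in control, which was not called. *Csf1* was just under the fold threshold without AC sample 2 (1.298) and at 1.15 without CpG sample 2. *Tgfb1* differed by -0.27, below the threshold, and *Ifnb1*, the gene of interferon β, was near its limit of detection at 0.0993 to 0.303 CPM with AC and 0.0202 to 0.109 CPM with CpG (adjusted p = 0.121).

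**Figure D3:**
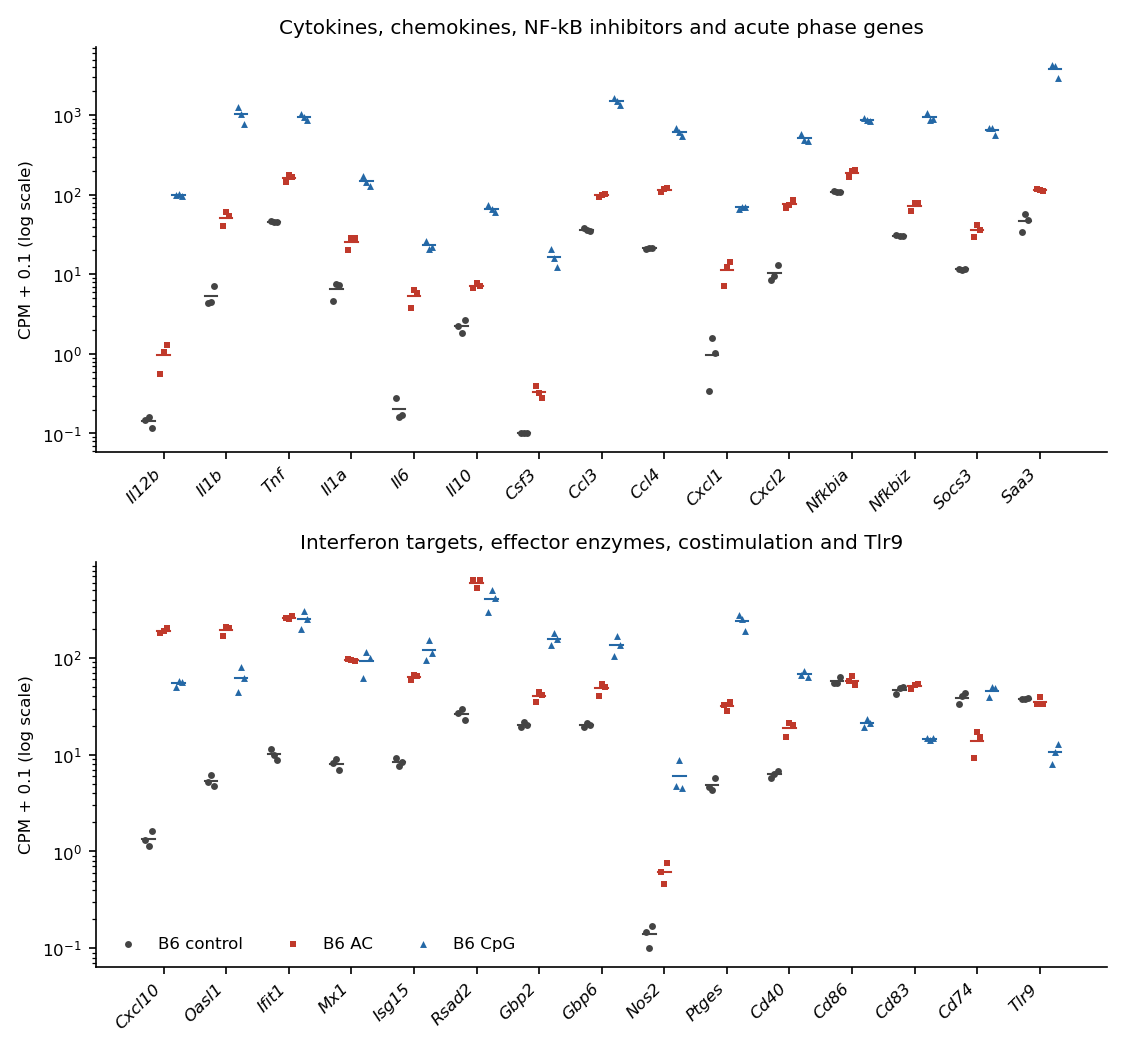
Level of each gene in every control (dark grey circles), AC treated (red squares) and CpG treated (blue triangles) B6 sample as CPM + 0.1 on a log scale, with a bar for the mean of 3. In the upper panel the AC samples lie between control and CpG for every gene, while in the lower panel *Cxcl10* and *Oasl1* are highest with AC and *Cd86*, *Cd83* and *Tlr9* are lowest with CpG.

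Most chemokines that differed between the stimuli were higher with CpG. Of 25 tested, 10 were higher with CpG and 2 with AC. Against control 14 were called higher and 1 lower with AC, and 14 higher and 2 lower with CpG. The ligands of CXCR2, which draw neutrophils, were higher with CpG: *Cxcl1* was at 67.1, 70.6 and 70.1 CPM with CpG, 7.13, 12.2 and 14 CPM with AC and 0.24 to 1.48 CPM in control (-2.64, SE 0.25, adjusted p = 4.46e-08). *Cxcl2* was at 583, 487 and 475 CPM with CpG and 68, 73.9 and 86.6 CPM with AC (-2.76, SE 0.26, adjusted p = 4.37e-08). *Cxcl3* (-2.12) and *Cxcl5* (-1.95) went the same way. Chemokines of the CC family were higher with CpG too, with *Ccl3* at 1644, 1507 and 1364 CPM against 94, 99.6 and 103 CPM with AC (-3.93, SE 0.12, adjusted p = 4.60e-14), *Ccl4* at a log2 fold change of -2.42 and *Ccl5* at -1.93. *Ccl12* (-1.62), *Cxcl13* (-3.90) and *Cxcl9* (-2.87) complete the 10. *Ccl22* (-1.299) was just short of the threshold. It was called higher with CpG by DESeq2 (-1.33), with its size factors (-1.33), in a fit of the 9 B6 samples (-1.31) and with the replicate block (-1.37). It was also called without CpG sample 1 (-1.44), AC sample 2 (-1.44) or AC sample 3 (-1.64).

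*Cxcl10* and *Cxcl11*, ligands of the T cell receptor CXCR3 and targets of interferon, were the 2 chemokines higher with AC. *Cxcl10* rose from 1.04 to 1.51 CPM in control to 181, 188 and 204 CPM with AC and to 49.5, 58.3 and 55.7 CPM with CpG, so that the AC samples lay above every CpG sample (1.81, SE 0.21, adjusted p = 6.20e-07). *Cxcl11* had 70 counts over the AC group, 3 over the CpG group and 0 in control, so that its ratio of CPM between AC and CpG was 21 (95% interval 6.89 to 104 for counting error only). It is 1 of the 14 called higher with CpG than in control, a call that rests on those 3 counts and was lost with DESeq2 (adjusted p = 0.0885), with the replicate number as a block (0.0557), with no filter, in a fit of the 9 B6 samples, with thinned libraries and without CpG sample 1 or 2. *Cxcl9*, the third ligand of CXCR3, had the opposite direction, at 0.218, 0.151 and 0.223 CPM with AC and 2.14, 0.905 and 1.22 CPM with CpG. *Ccl2* and *Ccl7*, which attract monocytes, were not called (0.29 and 0.73).

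The promoters of *Cxcl1*, *Cxcl2* and *Cxcl10* are printed to show which motif matches they hold. Each is the RefSeq stretch of 250 bases before to 50 after the start of transcription on GRCm38.p6, written 5′ to 3′, with matches of 5 motifs on either strand in capitals. The motifs searched were the κB site GGGANNTTC, the interferon element GAAANNGAA, the AP-1 site TGANTCA, the cAMP response element TGACGTCA and the glucocorticoid element ACANNNTGT. *Cxcl1* (chr5:90890995-90891294, plus strand) and *Cxcl2* (chr5:90903649-90903948, plus strand) both hold GGGAATTTCCC, a single stretch that the κB motif matches on both strands. The matches are GGGAATTTC and GAATTTCCC, whose first bases lie 71 and 69 bases before the start in *Cxcl1* and 97 and 95 before it in *Cxcl2*. *Cxcl10* (chr5:92348840-92349139, minus strand) holds 1 κB match, GGGAAATTC, 159 bases before the start, an interferon element, GAAAGTGAA, 213 before it, and an AP-1 site, TGAGTCA, 74 before it. *Cxcl1* has a glucocorticoid element match as well, ACACCCTGT, 85 bases before the start. Sites spelled otherwise than these motifs are not marked, so the number of matches depends on the spelling.
Cxcl1: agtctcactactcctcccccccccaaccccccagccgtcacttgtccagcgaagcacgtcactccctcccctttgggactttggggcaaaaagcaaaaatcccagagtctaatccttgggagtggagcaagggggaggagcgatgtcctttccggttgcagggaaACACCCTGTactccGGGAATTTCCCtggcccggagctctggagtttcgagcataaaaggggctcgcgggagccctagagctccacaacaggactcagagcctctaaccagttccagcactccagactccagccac
Cxcl2: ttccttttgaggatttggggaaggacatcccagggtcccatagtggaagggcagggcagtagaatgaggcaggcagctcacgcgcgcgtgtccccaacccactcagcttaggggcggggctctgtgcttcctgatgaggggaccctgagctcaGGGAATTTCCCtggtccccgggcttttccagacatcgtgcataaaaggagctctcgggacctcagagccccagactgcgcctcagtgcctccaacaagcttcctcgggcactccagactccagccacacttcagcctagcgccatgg
Cxcl10: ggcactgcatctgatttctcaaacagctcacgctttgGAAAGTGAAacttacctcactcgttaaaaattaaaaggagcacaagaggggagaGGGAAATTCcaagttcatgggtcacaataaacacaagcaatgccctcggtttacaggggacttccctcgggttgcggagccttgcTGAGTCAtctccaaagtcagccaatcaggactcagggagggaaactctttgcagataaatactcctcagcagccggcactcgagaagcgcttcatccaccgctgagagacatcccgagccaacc

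Of 18 tested subunits and feedback inhibitors of NF-κB, 5 were higher with CpG and none with AC. *Nfkbiz*, for the inducible nuclear regulator IκBζ, was at 1064, 875 and 899 CPM with CpG and 61.9, 79.1 and 78.1 CPM with AC, from 30.2 to 30.9 CPM in control (-3.69, SE 0.12, adjusted p = 6.99e-14). *Nfkbia*, for the inhibitor IκBα, was at 933, 879 and 840.1 CPM with CpG and 165, 201 and 204 CPM with AC, from 108 to 112 CPM (-2.22, SE 0.08, adjusted p = 1.15e-13). The RNase gene *Zc3h12a* (-1.55), *Irak3* (-1.47) and *Tnip3* (-1.46) were the other 3. *Socs3*, the inhibitor of STAT3 signalling, was at 685, 686 and 573 CPM with CpG and 29.5, 41.6 and 35.9 CPM with AC (-4.18, SE 0.14, adjusted p = 1.15e-13). *Socs1*, which restrains interferon signalling, was not called between AC and CpG (-0.77), at 13.8, 10.03 and 12.2 CPM with AC and 22.8, 20.2 and 18.3 CPM with CpG. Both stimuli had raised it from 2.79 to 3.5 CPM.

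Among the other genes that led the CpG direction were acute-phase and antibacterial proteins. *Saa3*, serum amyloid A3, was at 4240, 4143 and 2948 CPM with CpG and 119, 116 and 111 CPM with AC (-5.04, SE 0.22, adjusted p = 1.87e-12). *Lcn2*, the siderophore-binding lipocalin 2, was at 96.4, 88.9 and 63.5 CPM with CpG and 1.11, 0.946 and 0.713 CPM with AC, within the spread of control (0.542 to 1.49 CPM). Its log2 fold change was -6.47 (SE 0.29, adjusted p = 3.10e-12), and *Hp*, haptoglobin, likewise overlapped control with AC (3.86 to 5.74 CPM against 4.46 to 5.61 CPM) and stood at -4.36 between AC and CpG. *Hcar2*, the receptor of niacin and β-hydroxybutyrate, was at 2.52 to 3.08 CPM with AC and 57.9 to 81.2 CPM with CpG (-4.56). The rest of the 15 leading genes were *Draxin* (-5.46), *Shisa3* (-4.66), the aggrecanase gene *Adamts4* (-4.59), *Gm12764* (-4.39), *Wnt6* (-4.06) and *Tmc3* (-3.93), beside *Il12b*, *Csf3*, *Il1b*, *Socs3* and *Ccl3*.

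Of 30 tested interferon and antiviral genes, 18 were called higher with AC than in control and 27 with CpG. The counts were 16 and 27 with the replicate number as a block. Both tests use the same control samples. The direct comparison called *Oasl1*, higher with AC, and none higher with CpG, with a median log2 fold change of -0.38 over the 30. The count higher with CpG rested on the samples: *Phf11b* (-1.24) was called without CpG sample 1 (-1.37) or AC sample 3 (-1.304), and *Usp18* (-1.16) without CpG sample 1 (-1.31). Summed over the list, CpG sample 1 was at 3510 CPM and CpG samples 2 and 3 at 5529 and 4520 CPM, against 3837 to 4218 CPM with AC. *Oasl1*, which inhibits translation of *Irf7*, was at 168, 207 and 205 CPM with AC and 44.8, 81.2 and 61.2 CPM with CpG, from 4.69 to 6.01 CPM in control (1.63, SE 0.21, adjusted p = 2.93e-06). *Ifit1*, which binds viral RNA, was at 255, 251 and 271 CPM with AC and 200.3, 306 and 254 CPM with CpG, and the groups overlapped (log2 fold change 0.03, SE 0.21, adjusted p = 0.916). *Mx1*, the antiviral GTPase, overlapped as well (0.04, SE 0.20, adjusted p = 0.888), and *Rsad2* (viperin, 0.57) and *Isg15* (-0.92) lay on opposite sides below the threshold. Without the fold threshold 4 of the 30 were higher with AC and 14 with CpG.

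The interferon-inducible GTPases, which act on the vacuoles of intracellular pathogens, had 4 calls towards CpG. Of 15 tested, *Gbp2*, *Gbp3*, *Gbp6* and *Gbp7* were called higher with CpG and none with AC (median -0.78), although *Gbp8* (1.203) was called higher with AC without AC sample 3, CpG sample 2 or CpG sample 3 (1.32 to 1.45). *Gbp2* was at 136, 182 and 156 CPM with CpG and 34.8, 44.7 and 41.4 CPM with AC, from 19.3 to 21.7 CPM in control (-1.97, SE 0.14, adjusted p = 6.78e-10). *Gbp6* stood at -1.49, *Gbp7* at -1.59 and *Gbp3* at -1.50, and *Gbp7* overlapped control with AC (24.4 to 30.1 against 24.8 to 31.5 CPM). Members of this family are similar in sequence, so that reads shared between them could be divided by the estimated counting.

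Enzymes of inflammatory mediators were higher with CpG for 4 of 16 tested members and with AC for 1. *Nos2*, inducible nitric oxide synthase, was low in both, at 4.68, 8.73 and 4.43 CPM with CpG and 0.516, 0.36 and 0.669 CPM with AC (-3.53, SE 0.36, adjusted p = 1.38e-07). *Ptges*, the prostaglandin E synthase, was at 278, 254 and 189 CPM with CpG and 32.4, 28.1 and 34.9 CPM with AC, from 4.19 to 5.58 CPM in control (-2.92, SE 0.14, adjusted p = 9.97e-12). *Ass1* (-1.57) and the arginine transporter *Slc7a2* (-1.34) were the other 2, and the arginase gene *Arg2* was higher with AC (1.34). *Acod1*, which makes itaconate, was raised by both, to 1021, 1284 and 1217 CPM with AC and 2631, 2688 and 2328 CPM with CpG from 40.2 to 44.1 CPM, a difference of -1.12 that did not reach the fold threshold. *Slc7a2* fell under the threshold without AC sample 3 (-1.24) or CpG sample 1 (-1.08), and *Arg2* without AC sample 1 (1.296), CpG sample 1 (1.24) or CpG sample 2 (1.27).

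Genes of antigen presentation did not move as a group. Of 15 tested, 6 were higher with CpG and 3 with AC. *Cd40*, the receptor of T cell help, was at 66.4, 73.4 and 63.3 CPM with CpG and 15.2, 21.3 and 20.3 CPM with AC, from 5.62 to 6.73 CPM in control (-1.84, SE 0.12, adjusted p = 5.48e-10). *Cd86*, a ligand of CD28, was instead lowest with CpG, at 19.4, 23.2 and 21.3 CPM against 57.6, 64.3 and 52.8 CPM with AC and 55.2 to 63.4 CPM in control (1.46, SE 0.17, adjusted p = 1.04e-06). *Cd83* had the pattern of *Cd86* (1.81), and *Tnfsf4*, the ligand of OX40, was the third gene higher with AC (1.40, 1.11 and not called without CpG sample 3). The inhibitory ligands *Cd274* (PD-L1, -1.40) and *Pdcd1lg2* (PD-L2, -2.06) were higher with CpG. For MHC class II the difference came with AC: *Cd74*, the invariant chain, was at 9.21, 17.2 and 15 CPM with AC, 39.3, 49.4 and 48.6 CPM with CpG and 33.3 to 43 CPM in control (-1.73, SE 0.17, adjusted p = 8.71e-08). *H2-Aa* (-1.44) and *H2-Eb1* (-1.47) followed, but without AC sample 1 they stood at -1.21 and -1.19, and *H2-Eb1* without CpG sample 2 at -1.29. Against control *Cd74* and *H2-Aa* were called lower with AC, but not without AC sample 1 (-1.27 and -1.29). *Ciita*, of the same list, went the other way (1.16, not called), and was called higher with AC without AC sample 1 (1.43). Dendritic cells and B cells also express class II. The 7 dendritic cell markers in the table summed to 8.12 to 9.57 CPM with AC, 22.6 to 30.1 CPM with CpG and 20.8 to 32.1 CPM in control. Of 5 tested, *Itgax* (-1.67) and *Ccr7* (3 counts with AC and 63 with CpG) were higher with CpG, and *Flt3* had 0, 4 and 3 counts over the AC, CpG and control groups. *Xcr1* (-1.17) was called higher with CpG only without AC sample 1 (-1.34). *Zbtb46* went the other way (1.25, not called), and was called higher with AC without CpG sample 2 (1.43) or CpG sample 3 (1.39). The 9 B-lineage markers summed to 18.1 to 20.3 CPM with AC, 26.4 to 29.2 CPM with CpG and 26.8 to 35.3 CPM in control, most of it *Ighm*. Their part in the class II difference was not tested.

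Among Toll-like receptors and their adaptors 2 of 21 tested genes were higher with AC and 1 with CpG. *Tlr9*, the receptor of CpG DNA, was at 33.1, 39.3 and 32.9 CPM with AC, which overlapped control (37.1 to 38.8 CPM), and at 7.88, 10.7 and 12.8 CPM with CpG (1.75, SE 0.13, adjusted p = 1.76e-09). *Tlr5*, the flagellin receptor, was at 2.05, 1.59 and 1.67 CPM with AC and fell with CpG to 6 counts over the group, from 2.36 to 3 CPM in control (5.21, SE 0.48, adjusted p = 3.92e-08). *Ticam2*, an adaptor of TLR4, was higher with CpG (-1.74). *Tlr7*, the sensor of single-stranded RNA, was not called (0.51).

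Genes of cholesterol synthesis were among those higher with CpG. Of 21 tested genes of sterol synthesis and uptake, 13 were higher with CpG, none with AC, and without the fold threshold 20 were higher with CpG. *Sqle* (chromosome 15, 59315077 to 59331193, mm10), which codes for squalene epoxidase, was at 10.9, 10.4 and 9.09 CPM with AC, 28.5, 24.3 and 22.4 CPM in control and 69.5, 62.5 and 56.2 CPM with CpG, 3 ranges that did not meet. Its log2 fold change of AC over CpG was -2.63 (SE 0.13, adjusted p = 6.28e-12), that of AC over control -1.31 and that of CpG over control 1.32, all called. Both calls against control were close to the fold threshold: the value for AC was -1.24 without AC sample 3 and -1.23 with all libraries thinned to the smallest total, and that for CpG was 1.24 without CpG sample 1. *Idi1*, an isomerase of the isoprenoid steps, was at 8.38, 5.73 and 6.91 CPM with AC, 27, 21.4 and 18.5 CPM in control and 60.2, 48 and 50.5 CPM with CpG (-2.92, SE 0.16, adjusted p = 2.32e-11), and the groups again did not overlap.

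Called enzymes spanned early and late steps of the route. In the mevalonate and isoprenoid steps *Hmgcs1* stood at -1.62, *Mvd* at -1.64 and *Fdps* at -1.77. In the squalene and sterol steps *Fdft1* stood at -2.45, *Cyp51* at -2.37, *Msmo1* at -1.59 and *Sc5d* at -1.66. The regulator *Srebf2*, which codes for SREBP2, was at 67, 69.2 and 66.7 CPM with AC and 217, 213 and 196 CPM with CpG (-1.63, SE 0.08, adjusted p = 5.88e-12), and *Stard4*, a cholesterol carrier, at -2.25. Against control 6 of the 21 were called lower with AC and none higher, and 2 were called higher with CpG and none lower, so that most members were called only between the stimuli or not at all.

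Of 17 tested targets of LXR, 6 were higher with AC and none with CpG. The cholesterol exporter *Abcg1* was at 271, 287 and 293 CPM with AC, 108, 124 and 131 CPM in control and 36.2, 46.6 and 50.3 CPM with CpG (2.68, SE 0.13, adjusted p = 1.13e-11). *Abca1*, which loads cholesterol onto apolipoprotein A-I, was at 1687, 1793 and 1909 CPM with AC and 504, 669.7 and 701 CPM with CpG (1.52, SE 0.13, adjusted p = 1.18e-08). *Mylip*, a ubiquitin ligase gene, was at 1.87, the lipid droplet coat gene *Plin2* at 1.79, the phospholipid transfer protein gene *Pltp* at 1.58 and *Arl4c* at 3.53. Against control *Abcg1*, *Mylip* and *Arl4c* were called lower with CpG, and none of these 6 was called with AC. *Nr1h3*, the gene of LXRα, was raised by both, at 164, 199 and 191 CPM with AC and 108, 148 and 144 CPM with CpG from 38.4 to 53.5 CPM in control, and its difference of 0.47 was short of the fold threshold.

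**Figure D4:**
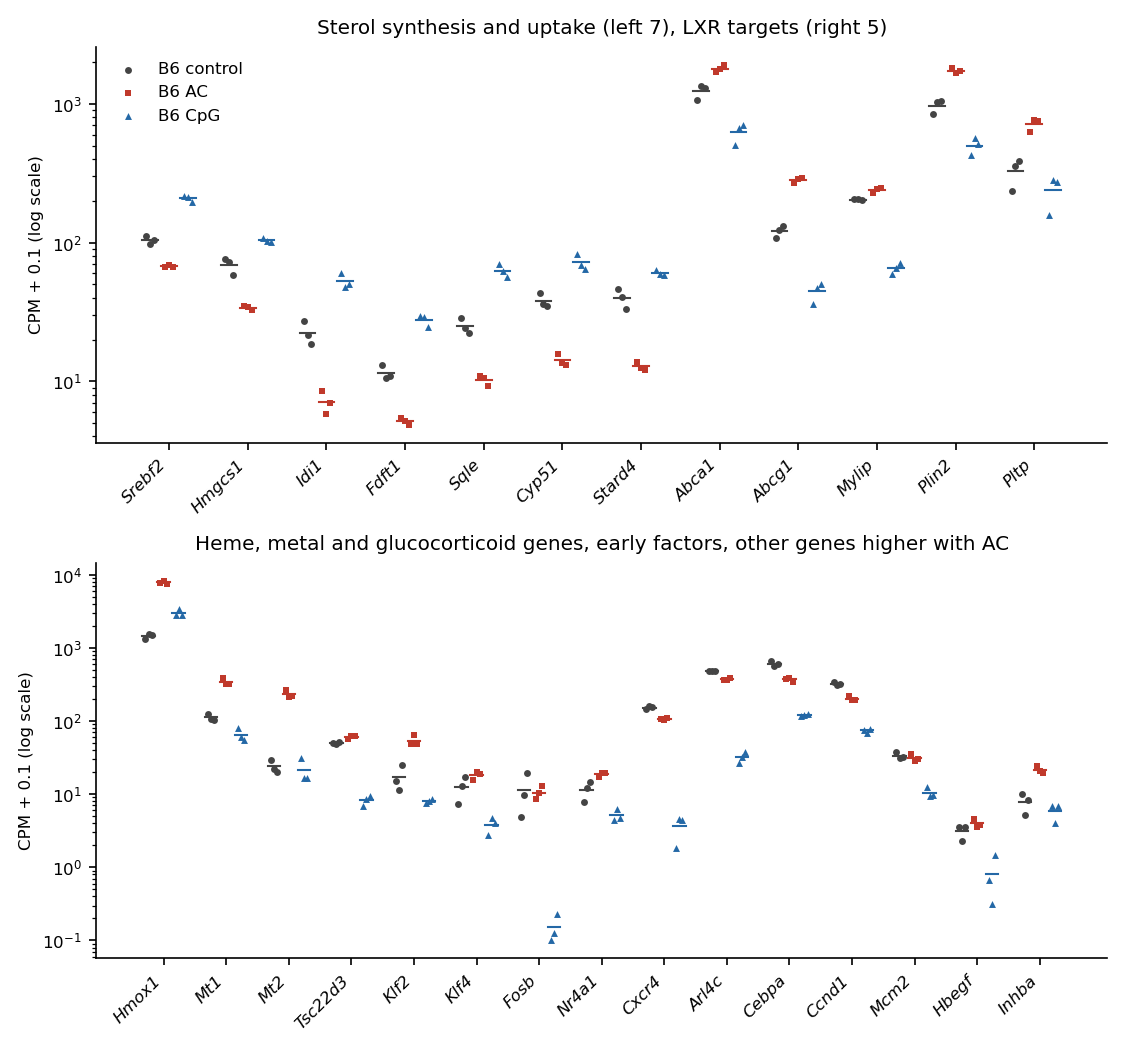
Level of each gene in every control (dark grey circles), AC treated (red squares) and CpG treated (blue triangles) B6 sample as CPM + 0.1 on a log scale, with a bar for the mean of 3. The 7 sterol genes on the upper left are lowest with AC and highest with CpG, the 5 LXR targets on the upper right are highest with AC, and *Mt2*, *Mt1*, *Hmox1* and *Klf2* in the lower panel lie above both control and CpG.

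Genes induced by glucocorticoids were 5 of 16 higher with AC and 1 higher with CpG. The metallothioneins, which bind zinc and copper, were raised over control by AC: *Mt2* was at 268, 209.7 and 217 CPM with AC, 30.6, 16.6 and 16.3 CPM with CpG and 29.3, 21.9 and 20.2 CPM in control (3.44, SE 0.19, adjusted p = 3.18e-11), and *Mt1* stood at 2.39 between AC and CpG and at 1.61 between AC and control. *Tsc22d3* (GILZ), a glucocorticoid-induced repressor of inflammatory genes, was slightly above control with AC, at 57.5, 61.9 and 61.4 CPM against 47.7 to 52.2 CPM, and low with CpG, at 6.75, 8.47 and 9.32 CPM (2.88, SE 0.12, adjusted p = 6.86e-13). *Fkbp5*, another glucocorticoid target, was at 15.9 to 19.5 CPM with AC and 15.4 to 19.6 CPM in control, and its difference from CpG (1.08) was not called. *Sgk1* (1.31) and *Zbtb16* (2.33, under 0.4 CPM in every sample) were the other 2 higher with AC. *Sgk1* was not called without AC sample 1 (1.24) or CpG sample 1 (1.14), with DESeq2 or its size factors (1.28 in both) or in a fit of the 9 B6 samples (1.296), and *Zbtb16* was not called without AC sample 3 (adjusted p = 0.0619) or CpG sample 3 (0.0614) or with thinned libraries (0.0857). *Cebpd* was higher with CpG (-2.41). The thymocytes had been killed with a glucocorticoid, and whether any of it reached the BMDMs was not tested.

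*Hmox1* (chromosome 8, 75093621 to 75100590, mm10), heme oxygenase 1, was at 7709, 8251 and 7555 CPM with AC, 2773, 3345 and 2850 CPM with CpG and 1309, 1564 and 1502 CPM in control (1.39, SE 0.09, adjusted p = 5.44e-10). The iron exporter *Slc40a1* (ferroportin) was the other of 20 tested NRF2, heme and iron genes higher with AC (1.64), and it was lower with CpG than in control (-2.11). The cystine transporter *Slc7a11* was higher with CpG (-1.32), though not called without AC sample 2 (-1.27) or CpG sample 1 (-1.17). The NRF2 targets *Nqo1* (-0.32) and *Txnrd1* (-0.16) were not called. Of 17 genes of the unfolded protein and integrated stress responses only *Herpud1* was called (-1.32, higher with CpG, -1.26 without AC sample 3 and -1.13 without CpG sample 1).

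Immediate early factors and MAP kinase phosphatases differed member by member, 6 of 29 higher with AC and 2 with CpG. *Fosb* (chromosome 7, 19302696 to 19310052, mm10), a subunit of AP-1, had the largest fold change towards AC among genes with a mean of at least 5 CPM in the AC group. It was at 8.36, 10.2 and 12.7 CPM with AC and 4.82, 9.57 and 19.3 CPM in control, and had 7 counts over the CpG group (7.56, SE 1.05, adjusted p = 8.12e-06). The Krüppel-like factors *Klf2* and *Klf4* were higher with AC, *Klf2* at 48.3, 64.1 and 48.7 CPM with AC, 7.36, 7.91 and 8.39 CPM with CpG and 15.2, 11.3 and 24.6 CPM in control (2.77, SE 0.20, adjusted p = 1.36e-09) and *Klf4* at 2.29. The nuclear receptors *Nr4a1* (1.89) and *Nr4a3* (3.32) and the ERK phosphatase *Dusp5* (1.90) also were. The phosphatases *Dusp2* (-3.07) and *Dusp16* (-2.49) were higher with CpG. The AP-1 genes *Fos* (-0.30) and *Jun* (0.21) were not called.

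Of the 15 leading genes of the AC direction all but *Mt2* and *Klf2* were called lower with CpG than in control. *Cxcr4* (chromosome 1, 128588199 to 128592294, mm10), the receptor of CXCL12 that holds cells in the marrow, was at 105, 102 and 108 CPM with AC, 144, 159 and 154 CPM in control and 1.71, 4.47 and 4.39 CPM with CpG (4.92, SE 0.27, adjusted p = 3.15e-11). *Rgs2*, an inhibitor of G protein signalling, was at 81.6, 83 and 80.5 CPM with AC, 148 to 159 CPM in control and 5.81, 8.71 and 11 CPM with CpG (3.27). *Bhlhe40*, a transcriptional repressor, was at 60.6, 56.1 and 55.2 CPM with AC, 90.2 to 99.3 CPM in control and 6.05, 6.87 and 8.08 CPM with CpG (3.03). The same order, with control highest, held for *Arl4c*, *Rnf150* (3.49), *Spsb1* (3.34), *Zdhhc14* (3.33) and *Eepd1* (2.73), and *Cytip* (3.64) had overlapping AC and control samples. Only *Mt2*, *Klf2*, *Emp1*, *Fam83f* (3.25) and *Tsc22d3* had all AC samples above all control samples among these 15. *Emp1*, an epithelial membrane protein, was at 286, 255 and 288 CPM with AC, 132, 155 and 164 CPM in control and 30.9, 37.8 and 40.7 CPM with CpG (2.92, SE 0.17, adjusted p = 5.93e-11).

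The promoters of *Emp1* and *Mt2*, genes whose AC samples lay above control, are given with their motif matches. *Emp1* (chr6:135362681-135362980, plus strand, the first of 2 starts) holds 2 AP-1 sites, TGAGTCA and TGATTCA, 145 and 25 bases before the start. *Mt2* (chr8:94172368-94172667, plus strand) holds 1 AP-1 site, TGACTCA, 79 bases before it, and no match of the glucocorticoid element as spelled here. Capitals mark the matches as above.
Emp1: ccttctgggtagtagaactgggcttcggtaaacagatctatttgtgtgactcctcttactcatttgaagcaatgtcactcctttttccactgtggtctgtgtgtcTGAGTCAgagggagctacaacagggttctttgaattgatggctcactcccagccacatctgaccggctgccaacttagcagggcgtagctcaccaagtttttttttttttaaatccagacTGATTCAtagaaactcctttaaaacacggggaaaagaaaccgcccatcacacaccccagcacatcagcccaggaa
Mt2: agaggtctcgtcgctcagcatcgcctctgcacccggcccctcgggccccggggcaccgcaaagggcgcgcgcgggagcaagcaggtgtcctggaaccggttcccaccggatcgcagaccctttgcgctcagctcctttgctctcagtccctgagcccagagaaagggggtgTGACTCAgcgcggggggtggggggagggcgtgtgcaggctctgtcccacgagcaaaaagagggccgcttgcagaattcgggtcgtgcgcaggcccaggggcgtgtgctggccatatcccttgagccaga

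Promoters of this length were at hand for 379 of the genes higher with AC, 348 of those higher with CpG and 10390 of all tested genes. At least 1 AP-1 site was in 14.8% of the promoters of genes higher with AC, 10.1% of those higher with CpG and 6.57% of all. For the κB site the shares were 3.43%, 5.75% and 4.46%, and for the interferon element 8.71%, 11.8% and 8.92%. For the glucocorticoid element they were 7.12%, 6.32% and 5.29%, and for the cAMP response element 2.64%, 3.45% and 3.50%. A gene with several starts counts once if any of its promoters holds the motif, and a match describes the letters only.

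Growth and repair factors had the highest median of the lists, 1.02 over 15 tested, with 5 higher with AC and 1 with CpG. *Inhba*, the subunit of activin A, was raised over control by AC, at 23.8, 20.8 and 19.4 CPM with AC, 10.01, 5.05 and 8.17 CPM in control and 6.87, 3.89 and 6.74 CPM with CpG (1.86, SE 0.21, adjusted p = 4.34e-07). *Hbegf* (2.40), *Fgf2* (1.79) and *Pdgfa* (1.49) overlapped control or lay slightly below it with AC and were called lower with CpG than in control. *Gdf15* was the fifth (1.37, 1.13 and not called without CpG sample 1), and the angiogenic factor *Vegfa* was short of the threshold (1.204). *Chil3*, at about 1 CPM, was higher with CpG (-1.35, -1.197 and not called without CpG sample 2).

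Of 30 tested cell cycle genes 6 were higher with AC and none with CpG. Cyclin D1, *Ccnd1*, was at 219, 192 and 195 CPM with AC, 307 to 341 CPM in control and 75.2, 69 and 78.6 CPM with CpG (1.44, SE 0.07, adjusted p = 5.88e-12). Subunits of the replicative helicase followed, *Mcm2* at 1.59 and *Mcm7* at 1.44, while *Mcm4* (1.31), *Mcm5* (1.32) and *Ccne2* (1.35) lost their call without AC sample 1 (1.24, 1.13 and 1.12) or CpG sample 2 (1.27, 1.19 and 1.15), and *Mcm5* also without CpG sample 3 (1.25) and with thinned libraries (1.27). *Mcm4* (1.28) and *Mcm5* (1.29) were also not called with DESeq2, with its size factors or in a fit of the 9 B6 samples, so that 4 members were called there, and 3 without AC sample 1. Other settings added calls: *Mcm6* (1.298) was called with no filter (1.31), with thinned libraries (1.33) and without AC sample 2 (1.38), among others. *Ccne1* (1.28) was called without AC sample 2 (1.34), AC sample 3 (1.35) or CpG sample 2 (1.33). Over the samples left out in turn the count ranged from 3 to 8. The proliferation marker *Mki67* was not called (0.44). Against control no member was called with AC and 6 were called lower with CpG. Of 24 macrophage identity factors and receptors only *Cebpa* was called, at 377, 387 and 345 CPM with AC, 571 to 654 CPM in control and 116, 122 and 124 CPM with CpG (1.62, SE 0.10, adjusted p = 2.31e-10).

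Of 22 tested genes of glycolysis and hypoxia 5 were higher with CpG and 1 with AC. The lactate exporter *Slc16a3* was at 265, 272 and 246 CPM with CpG, 68.3, 55.4 and 54.6 CPM with AC and 40.5 to 46.6 CPM in control (-2.13, SE 0.11, adjusted p = 1.83e-11). *Pfkl* (-1.65), *Pdk1* (-1.58), *Bnip3* (-1.51) and *Egln3* (-1.84) were the others. The glucose transporter *Slc2a3* was higher with AC (1.39, 1.29 and not called without CpG sample 2). Without the fold threshold 18 of the 22 were higher with CpG and 3 with AC. No lysosomal hydrolase or proton pump gene of 26 was called by edgeR or DESeq2. *Gla* (1.29) passed the fold threshold with the replicate block (1.301) and without AC sample 1 (1.31), CpG sample 2 (1.37) or CpG sample 3 (1.35), and *Atp6v0d2* (1.03) without CpG sample 3 (1.35), and 17 of the 26 passed the adjusted p alone in the direction of AC and 2 in that of CpG (median 0.28).

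Receptors and effectors of engulfment were mostly not called. Of 31 tested, 2 were higher with AC and none with CpG (without CpG sample 1 *Timd4*, with 4 counts with AC and 18 with CpG, was called): *Havcr2* (TIM-3), at 31.9, 26.1 and 28.1 CPM with AC, 26.7 to 27.9 CPM in control and 4.23, 4.74 and 5.06 CPM with CpG (2.62, SE 0.15, adjusted p = 7.06e-11), and *Cd300lf* (1.77), a phosphatidylserine receptor at 13.3, 14.7 and 17.5 CPM with AC, 2.22, 5.51 and 5.74 CPM with CpG and 26.7 to 37.7 CPM in control. *Mertk* was at 145, 148 and 145 CPM with AC and 98.8, 128 and 118 CPM with CpG, both below the 207 to 243 CPM of control, a difference of 0.35 (SE 0.08, adjusted p = 8.99e-04) short of the fold threshold. *Axl* was at -0.38 and *Tyro3*, under 0.6 CPM in every sample, at 0.85 (adjusted p = 0.137). *Gas6*, the ligand that bridges these receptors to phosphatidylserine, was at 88, 131 and 117 CPM with AC, 58.1, 87.1 and 80.7 CPM with CpG and 244 to 286 CPM in control (0.57 between AC and CpG, not called).

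RNA of the engulfed thymocytes would count as expression of the AC samples, so T-lineage markers were summed. The 26 genes together were at 28.6, 32.3 and 36.1 CPM with AC and at 13.4, 15.2 and 15.5 CPM with CpG, but at 73.4 to 89.5 CPM in control BMDMs, which received no thymocytes (AC against CpG, p = 0.1 by an exact two-sided permutation of the 6 samples, which can give no smaller p). Most of each AC and control sum was *Cd28*, which BMDMs had without thymocytes, at 59.4 to 76 CPM in control, 21 to 26.5 CPM with AC and 5.36 to 6.41 CPM with CpG. The 16 markers under the filter summed to 1.25, 1.46 and 1.98 CPM with AC, 0.665, 0.852 and 1.54 CPM with CpG and 0.352 to 0.657 CPM in control (exact p = 0.3). The defining genes of immature thymocytes were at very low levels: *Rag1* had 24 counts and *Dntt* 18 over the AC group, and both had 0 in the CpG and control groups. The filter on low counts kept them and *Themis* out of the test. With no filter edgeR called *Rag1* (log2 fold change 5.97, adjusted p = 0.00442), *Dntt* (5.57, adjusted p = 0.0184) and *Themis* (4.75, adjusted p = 0.0470) higher with AC. *Cd3e* had 6 counts with AC and 2 with CpG, and *Trac* 4 and 17. Of the 10 markers tested, *Cd28*, *Satb1*, *Cd5* and *Tcf7* were higher with AC and *Ccr9* with CpG. The call of *Tcf7*, at 0.338, 0.53 and 0.513 CPM with AC and 0.0403, 0.24 and 0.283 CPM with CpG, held without AC sample 1 or CpG sample 3 and was lost without any one of the other 4 (0.81 without CpG sample 1). It was also lost with DESeq2 (adjusted p = 0.0520), its size factors (1.29), no filter (adjusted p = 0.0614), the fits of 6 and of 9 samples (0.0825 and 0.0718) and thinned libraries (0.133). Their part in the genes higher with AC was not tested.

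Of the markers of other cell types, those of neutrophils were higher with CpG for 3 of 5 tested (*S100a8*, *S100a9* and *Camp*) and higher with AC for *Prtn3*. The 7 neutrophil markers in the table summed to 35.3 to 49 CPM with AC and 61.7 to 77.3 CPM with CpG, with 76.8 to 91.7 CPM in control. The neutrophil-defining *Ly6g*, *Elane* and *Mpo* were not analysed here. B-lineage genes had 1 of 8 in each direction (*Cd79a* with AC, *Ighm* with CpG), and no fibroblast marker of 7 was called. *Cd79a* lost its call without CpG sample 1 (adjusted p = 0.0543), and *Prtn3*, with 2 counts over the CpG group, without AC sample 3 (adjusted p = 0.0868), CpG sample 1 (0.0789) or CpG sample 2 (0.0616). Of 10 macrophage markers *Marco*, a scavenger receptor, was higher with CpG (-1.88).

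The same contrast in SjSS BMDMs differed from that in B6 for many of these genes. The difference of AC minus CpG between the strains, tested as an interaction, was called for 1379 genes (8.73% of those tested), 562 with a larger and 817 with a smaller value in B6. For the antiviral genes 26 of 30 had a smaller value in B6 and none a larger one, as had all 15 interferon-inducible GTPases, 14 of 20 cytokines and 15 of 25 chemokines. *Il12b* stood at -6.85 in B6 and -0.66 in SjSS, an interaction of -6.19 (SE 0.25, adjusted p = 1.34e-12). *Il6* changed direction, at -2.13 in B6 and 2.21 in SjSS (interaction -4.34), and so did *Cd40*, at -1.84 and 2.91 (interaction -4.74). *Cxcl10* was higher with AC in both, at 1.81 in B6 and 7.58 in SjSS (interaction -5.77).

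The 5 largest interactions in each direction among genes at 5 CPM or more were *Cxcr4*, *Bmf*, *Gm10169*, *Zfp395* and *Gm37795*, larger in B6, and *Nos2*, *Cxcl9*, *Serpina3g*, *Serpina3f* and *Tgtp1*, smaller in B6. *Nos2* was lower with AC in B6 (-3.53) and higher with AC in SjSS (4.51), at 51.3 CPM with AC and 2.23 CPM with CpG there. *Bmf*, a proapoptotic BH3-only gene, was at 0.95 in B6, which was not called, and lower with AC in SjSS (-2.18). In *Gm10169* CpG sample 2 of B6 stood apart, at 3.04, 11.4 and 2.8 CPM. Of 21 sterol genes 4 had a called interaction, all smaller in B6, *Idi1* and *Insig1* among them, and of 17 LXR targets *Arl4c* had one, larger in B6. The values of *Sqle* (-2.63 in B6 and -2.05 in SjSS), *Stard4* (-2.25 and -2.42), *Abcg1* (2.68 and 1.87), *Mt2* (3.44 and 3.05) and *Hmox1* (1.39 and 1.32) are given side by side, and their interactions were not called.

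**Figure D5:**
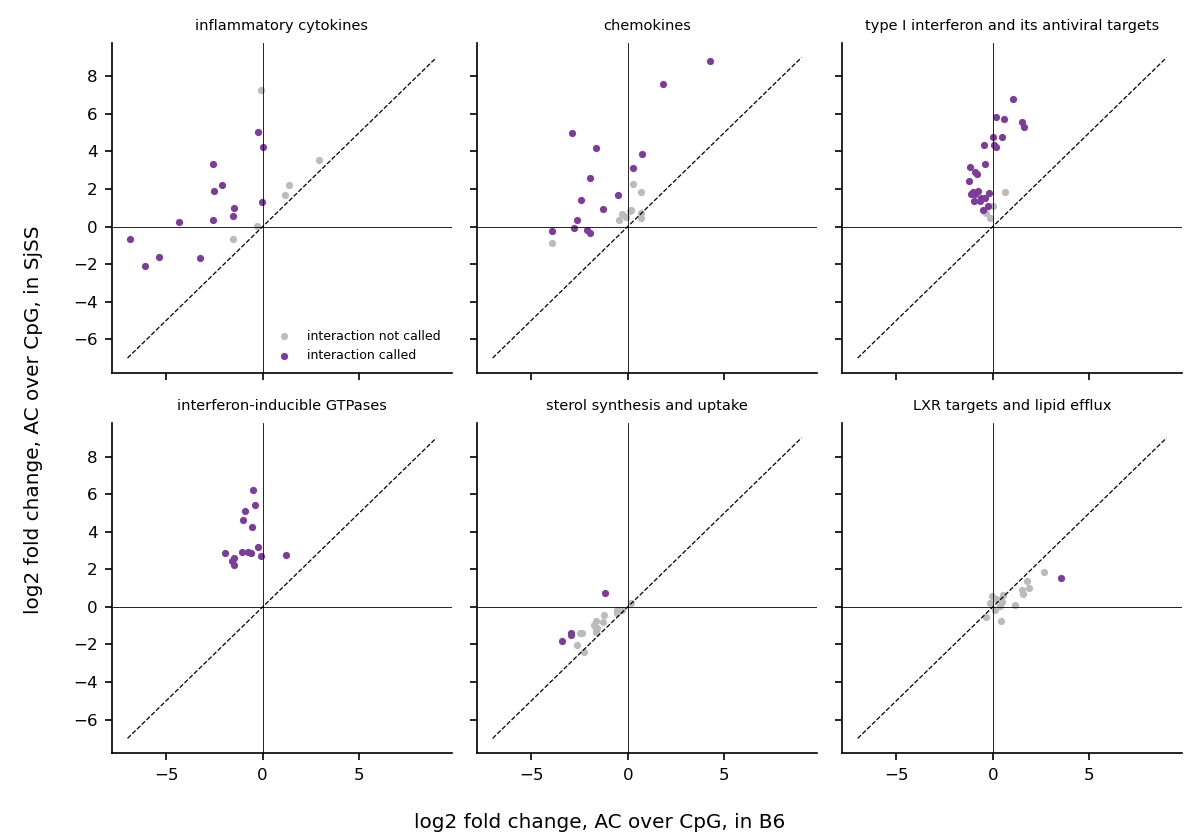
Log2 fold change of AC over CpG in B6 (horizontal axis) and in SjSS (vertical axis) for each tested gene of 6 lists, with called strain interactions in purple, others in grey and a dashed line where both strains are equal. Interferon targets and GTPases lie mostly above the line, with 26 of 30 and 15 of 15 interactions called, against 4 of 21 for sterol genes and 1 of 17 for LXR targets.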

How the data were processed

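RNA was sequenced from 18 BMDM samples. Reads were aligned by the authors with STAR (mm10) and genes quantified by Partek's E/M method. The deposited values were estimated counts without normalization (41.1% not whole, tolerance 1e-06), in 1 table of 20615 genes. Estimation divides reads shared by similar genes. Of the names, 23 had become dates. Counts as deposited were rounded. Genes were kept by filterByExpr (15789), libraries scaled by TMM, and 6 group means fitted to the 18 samples with edgeR 4.0.16 (limma 3.58.1, R 4.3.3). Calls required a Benjamini-Hochberg adjusted p under 0.05 together with a log2 fold change beyond 1.3, the thresholds of the study's methods. The SE was the size of the log2 fold change over the square root of F. Ratios of 3 counts or fewer have exact conditional binomial 95% intervals, for counting error only. Distances were taken on log2 CPM (prior count 2). Groups came from the labels. The depth was 30688288 to 57139640 counts.

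Members and lists were chosen with earlier results of these data known. Named were the 15 genes with the largest fold in each direction (called, groups not overlapping, mean of at least 5 CPM in the higher group), up to 6 called members of a list in each direction, genes the study's text names and the 5 largest interactions in each direction. Further called members, and members not called, were named after their values were seen. Some genes that the rule names are not reported here. Alternatives were DESeq2 1.42.0, its size factors, no filter, at least 10 counts in 3 samples, fits of fewer groups, other fold thresholds, the replicate block (same-numbered CpG and control samples correlated at r = 0.26, 0.26 and 0.14 in their deviations from the group means), thinned libraries, the 500 most variable genes for distances and each sample left out in turn. On counts simulated for AC against CpG in B6 (15789 genes), edgeR called 100 of 100 genes changed by a log2 of 2 and 100 of 100 changed by 3, with 1 false call. The changed genes were drawn from those with ample counts, and all genes had the same dispersion. The simulation thus does not cover genes with few counts, changes near the threshold or a sample that stands apart. Promoter sequences are RefSeq's on GRCm38.p6, matched by symbol, and gene positions are those of the deposited table (mm10). Tables and figures were made in Python 3.11.15 with matplotlib 3.10.9, numpy 2.4.6 and pandas 2.3.3.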

Additional observations from a re-analysis of the deposited data

Results flagged for a closer look

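Results are given here for a closer look because the difference of AC minus CpG was not the same in B6 and SjSS BMDMs by the test of the interaction in edgeR (adjusted p under 0.05 and over 1.3 in size). Each value is the log2 difference in B6 less that in SjSS, so that a negative value means that AC stood lower against CpG in B6 than in SjSS. Among cytokines and their receptors or regulators the interaction was -6.19 for *Il12b*, -5.93 for *Il27*, -4.55 for *Il1b*, -4.42 for *Il1a*, -4.34 for *Il6*, -4.08 for *Ifnb1*, -3.99 for *Csf3*, -3.72 for *Il12a*, -2.87 for *Tnf*, -2.45 for *Tnfsf9*, -2.12 for *Il18*, -1.54 for *Il10*, -5.81 for *Socs1*, -3.37 for *Socs3*, -1.93 for *Nfkbiz* and -1.80 for *Nfkbia*. Among chemokines and chemokine receptors it was -7.85 for *Cxcl9*, -5.78 for *Ccl12*, -5.77 for *Cxcl10*, -4.59 for *Cxcl11*, -4.52 for *Ccl5*, -3.85 for *Ccl4*, -3.68 for *Ccl3*, -3.19 for *Ccr7*, -3.12 for *Ccl7*, -3.005 for *Cxcl1*, -2.85 for *Ccl2*, -2.67 for *Cxcl2*, -1.92 for *Cxcl3*, -1.85 for *Ccr9*, -1.60 for *Cxcl5* and 3.78 for *Cxcr4*. Among interferon targets and GTPases it was -6.72 for *Tgtp1*, -5.15 for *Rsad2*, -4.82 for *Gbp2*, -4.71 for *Ifit1*, -4.28 for *Mx1*, -4.12 for *Gbp3*, -4.04 for *Gbp7*, -3.83 for *Isg15*, -3.70 for *Gbp6*, -3.69 for *Oasl1*, -3.68 for *Phf11b*, -4.31 for *Usp18* and -1.56 for *Gbp8*. Among enzymes, transporters and sterol or lipid genes it was -8.04 for *Nos2*, -4.65 for *Slc7a2*, -2.66 for *Acod1*, -2.20 for *Ptges*, -1.88 for *Insig1*, -1.77 for *Slc7a11*, -1.44 for *Idi1*, 1.36 for *Slc2a3* and 1.99 for *Arl4c*. Among surface molecules and receptors of antigen presentation, engulfment and sensing it was -4.74 for *Cd40*, -3.86 for *Hcar2*, -3.28 for *Cd274*, -2.51 for *H2-Eb1*, -2.46 for *Cd74*, -2.43 for *H2-Aa*, -2.03 for *Axl*, -1.93 for *Itgax*, 1.60 for *Havcr2*, 2.23 for *Tlr5* and -3.64 for *Timd4*. Among acute-phase genes, neutrophil markers and genes of other secreted proteins it was -7.45 for *Serpina3g*, -7.31 for *Serpina3f*, -5.95 for *S100a9*, -4.09 for *Lcn2*, -3.71 for *Adamts4*, -2.60 for *Camp*, -2.32 for *Draxin*, -2.19 for *Saa3*, -1.90 for *Wnt6*, -1.72 for *Hp*, -1.63 for *Chil3* and -1.52 for *Ighm*. For the remaining genes it was -3.35 for *Dusp2*, -2.04 for *Shisa3*, -1.84 for *Dusp16*, -1.81 for *Gm12764*, 1.32 for *Zdhhc14*, 1.49 for *Emp1*, 1.56 for *Spsb1*, 1.73 for *Rgs2*, 1.77 for *Bhlhe40*, 1.77 for *Rnf150*, 1.79 for *Cebpa*, 2.10 for *Fam83f*, 2.32 for *Eepd1*, 2.38 for *Tsc22d3*, 2.55 for *Cytip*, 2.80 for *Gm37795*, 2.98 for *Zfp395*, 3.05 for *Gm10169* and 3.14 for *Bmf*.

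Most of these genes were named for their value in B6, which the interaction contains, so that its sign is not independent of that choice. Values of *Ccr7*, *Cxcl11*, *Ifnb1*, *Il12a* and *Timd4* rest on groups with few counts. The call was lost without 1 B6 sample for *Cxcl11* (-3.81 without CpG sample 1), *Ifnb1* (-3.36 without CpG sample 3), *Slc2a3* (1.27 without CpG sample 2), *Tlr5* (2.15 without CpG sample 1 and 1.87 without CpG sample 3), *Zdhhc14* (1.17 to 1.28 without AC sample 3, CpG sample 1 or CpG sample 2), *Timd4* (-3.54 to -3.06 without AC sample 2, AC sample 3, CpG sample 2 or CpG sample 3) and *Ccr7* (-3.14 to -2.65 without AC sample 1, AC sample 2, CpG sample 2 or CpG sample 3). With DESeq2 the interactions of *Gm10169* (2.88, adjusted p = 0.162) and *Zdhhc14* (1.28, and 1.27 with its size factors in edgeR) were not called, and with thinned libraries those of *Draxin* (-2.10, adjusted p = 0.111) and *Chil3* (-1.61, adjusted p = 0.0678) were not.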

How the results depend on the processing

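Where a setting changed a value, the cause was not tested unless named. The counts of genes depended most on the fold threshold: with a log2 fold change over 2 there were 201 higher with AC and 250 higher with CpG, and 230 larger and 462 smaller interactions in B6. With a change of 1.3-fold they were 2650, 2193, 2557 and 2318, and with no fold threshold 3736, 3541, 3138 and 3025. With each of the 6 samples left out in turn they ranged from 540 to 689, from 533 to 571, from 497 to 659 and from 798 to 830, and the highest count of genes higher with AC came without CpG sample 3, when 502 of the 575 were kept. Under the other settings (DESeq2, its size factors, no filter, another filter, fits of fewer groups, thinned libraries) the counts were within 1.5 times those given above, with 486 to 630 higher with AC and 487 to 577 higher with CpG. The mean distance between AC and CpG samples was 54.5 over the 500 most variable genes, a smaller set.

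Same-numbered AC and CpG samples deviated together with r = 0.11, 0.04 and 0.03, and each sample correlated best with its own number. These values are small and do not settle whether the samples are paired, and the main fit has no block. With the replicate number as a block 589 genes were higher with AC, 538 higher with CpG, and 572 interactions were larger and 818 smaller in B6. Same-numbered CpG and control samples deviated together with r = 0.26, 0.26 and 0.14, which was taken as a sign of pairing. For AC and control r was 0.19, 0.04 and 0.02, and not every sample correlated best with its own number. AC sample 2 correlated better with control sample 3 (0.074) and AC sample 3 with control sample 2 (0.071). With the block 933 genes were higher and 1095 lower with CpG than in control (925 and 1086 without), an alternative chosen after seeing the data. The counts with AC (383 and 322) also moved by less than 1.5 times. Of the genes named, *Cxcl11* lost its call between CpG and control under the block and *Tcf7* that between AC and control (adjusted p = 0.0518).

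With thinned libraries *Arg2* (1.26), *Chil3* (-1.28), *Slc7a2* (-1.27) and *Tnfsf4* (1.25) also lost their call in the direct comparison. Of 184 genes named with a fold change, 156 had the same call and direction when each sample was left out in turn and under every setting other than the fold thresholds. Direction changed for 3 genes that were not called, with ranges over the samples left out of -1.28 to 0.016 for *Gm10169* (highest without CpG sample 2), -0.11 to 0.19 for *Ifit1* and -0.18 to 0.23 for *Mx1* (both lowest without CpG sample 1). No design of 3 against 3 samples can reach an exact permutation p under 0.1, and genes near 1 CPM or lower, such as *Ifnb1*, *Tyro3* and *Zbtb16*, are limited by depth.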
